A study of Mus musculus with 4 samples.

Results

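The 88 genes described here appear in both tables that the authors deposited from mouse testis. They are listed once among 988 genes whose RNA level differed between genotypes and once among 915 genes with at least 1 splicing event that differed. They were found by symbol, with events that carry no gene name assigned to the gene named above them, and they make up 8.91% of the genes of the expression table and 9.62% of those of the splicing table. Together the tables name 1815 genes.

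The tested mice were 2 males labelled Ptbp2-deficient through a conditional knockout (cKO), and they were set against 2 wild type (WT) males. All 4 were C57BL/6 and 25 days old, and poly(A)+ RNA of the whole testis of each gave 1 library. The sources used here do not give the promoter that drove the recombinase, the part of the gene it removed or the cells in which it acted. Expression was deposited as RPKM, which scales the reads of a gene to its length and to the size of the library. Splicing was deposited as ΔPSI, the difference between genotypes in percent spliced in, which is the share of a gene's transcripts that hold a given exon, intron or splice site. It is given in percentage points, 1 value per event, with no value per library and no p-value, so no replicate error can be set on it. Which genotype was subtracted is not stated, so only the sign of ΔPSI is given, with no statement on which genotype included more.

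PTBP2 is an RNA-binding protein that attaches to stretches rich in C and U, often near a splice site, and in most described cases keeps the neighbouring exon out of the mature RNA. Splicing and RNA level can be linked. A choice of exon or a retained intron that brings in an early stop codon can send the transcript to nonsense-mediated decay (NMD), and the same gene can also differ in level for reasons that have nothing to do with its exons. In the testis at this age the first wave of germ cells has reached the spermatid stages, where many genes of sperm formation are switched on.

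Both tables were selected by the authors on the same comparison of genotypes. The values that follow are therefore a description of how these genes were listed and carry no test. With 2 libraries against 2, the smallest p-value of a two-sided exact permutation test is 0.333.

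The sequences below show the parts of these genes on which the splicing values turn. They were read from GENCODE M21 transcripts on build mm10, 5′ to 3′ on the gene's strand. Each exon was identified as the only annotated internal exon of its gene with the length of the deposited mm9 interval. Each intron was the only annotated intron of its gene that, together with its flanking exons, spans that length. The first 4 are the retained introns under 300 bases long whose ΔPSI was 20 points or more in either direction, with the longest run of C and T in capitals. In the first Tmem191c intron several runs are equally long and the one nearest to the 5′ end is marked. The ΔPSI was -40 for Rpl34, -36 for Ncrna00085 (Spaca6), and -35 and -20 for the introns of Tmem191c in the order shown.
Rpl34, intron, chr3:130729151-130729228, minus strand: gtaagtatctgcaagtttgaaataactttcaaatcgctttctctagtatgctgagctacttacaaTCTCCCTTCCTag
Ncrna00085, intron, chr17:17838244-17838315, plus strand: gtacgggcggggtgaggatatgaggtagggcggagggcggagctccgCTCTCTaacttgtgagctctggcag
Tmem191c, intron, chr16:17276888-17276961, plus strand: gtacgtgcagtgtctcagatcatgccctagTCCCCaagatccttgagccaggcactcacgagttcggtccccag
Tmem191c, intron, chr16:17277402-17277527, plus strand: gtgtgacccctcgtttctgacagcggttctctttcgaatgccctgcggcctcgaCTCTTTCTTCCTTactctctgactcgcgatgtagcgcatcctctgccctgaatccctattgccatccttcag

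The next 6 are cassette exons, which a transcript holds whole or skips. Those of Ptbp2 and Dgkh are coding exons, with NMD transcripts among the annotated ones that skip them. The Dgkh exon is 93 nt long, which keeps the reading frame. Whether the absence of either of these exons itself leads to NMD was not tested. Those of Fmnl1 and Magi3 hold a stop codon of a protein-coding transcript, and those of Akap1 and Iqgap1 hold a stop codon of a transcript annotated as an NMD target. A stop codon is in capitals, and these exons are shown up to it. The ΔPSI was -9 for Ptbp2, -45 for Dgkh, -64 for Fmnl1, -28 for Magi3, 37 for Akap1 and -22 for Iqgap1.
Ptbp2, exon, chr3:119724612-119724645, minus strand: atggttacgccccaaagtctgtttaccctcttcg
Dgkh, exon, chr14:78581479-78581571, minus strand: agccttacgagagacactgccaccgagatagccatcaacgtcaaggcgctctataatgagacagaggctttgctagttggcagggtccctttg
Fmnl1, exon, chr11:103198135-103198226, plus strand: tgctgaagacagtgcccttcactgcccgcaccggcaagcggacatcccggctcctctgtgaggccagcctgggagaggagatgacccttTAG
Magi3, exon, chr3:104016643-104016692, minus strand: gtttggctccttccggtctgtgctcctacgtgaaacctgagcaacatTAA
Akap1, exon, chr11:88843629-88843696, minus strand: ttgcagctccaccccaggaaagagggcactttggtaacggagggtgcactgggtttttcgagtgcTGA
Iqgap1, exon, chr7:80729671-80729691, minus strand: ttctgtgctttcctacagTGA

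The targeted gene is itself one of the 88. Ptbp2 was at 111 and 98.2 RPKM in the libraries labelled cKO and at 65.7 and 66.6 RPKM in WT libraries. Both libraries labelled cKO lay above both WT libraries, with a log2 ratio of 0.66 and an adjusted p of 0.0044 in the authors' deposited table. RPKM sums reads over the whole gene and cannot show whether 1 exon is missing. It is therefore no check of the labels, which are used as given. Its event was the 34-nt exon printed above, exon 10 of 14 in the matched transcript (mm9 chr3:119427530-119427563), at a ΔPSI of -9. Its length is not a multiple of 3, and the annotated transcripts that skip it are NMD or retained-intron transcripts.

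Of the 88 genes, 84 were lower in the libraries labelled cKO and 4 were higher, against 93.6% lower and 6.38% higher over the 988 expression genes. In all 88 both libraries labelled cKO lay outside the range of the WT libraries, as did 100% of the 988, because the table was selected for difference. A level lower by 4-fold or more was seen in 24 (27.3%) of the 88, against 46.3% of the table. The median log2 ratio was -1.23, against -1.87 over the table. Over the 88 genes, labelled cKO libraries 1 and 2 had median levels of 14.9 and 10.1 RPKM, and WT libraries 1 and 2 of 36.2 and 38.9 RPKM. The nearest libraries of the 2 genotypes were apart by a median of 1.93-fold. In WT the 88 had a median of 38.1 RPKM, above the 24.0 RPKM of the whole table. The genes nearest to the edge of the selection were Ptbp2 and Dtnb by ratio (log2 ratio of 0.66 and -0.68) and Dnajb2 and Ccna1 by the adjusted p of the authors' deposited table (0.0098 and 0.0096). Genes outside the tables were not analysed here.

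**Figure D1:**
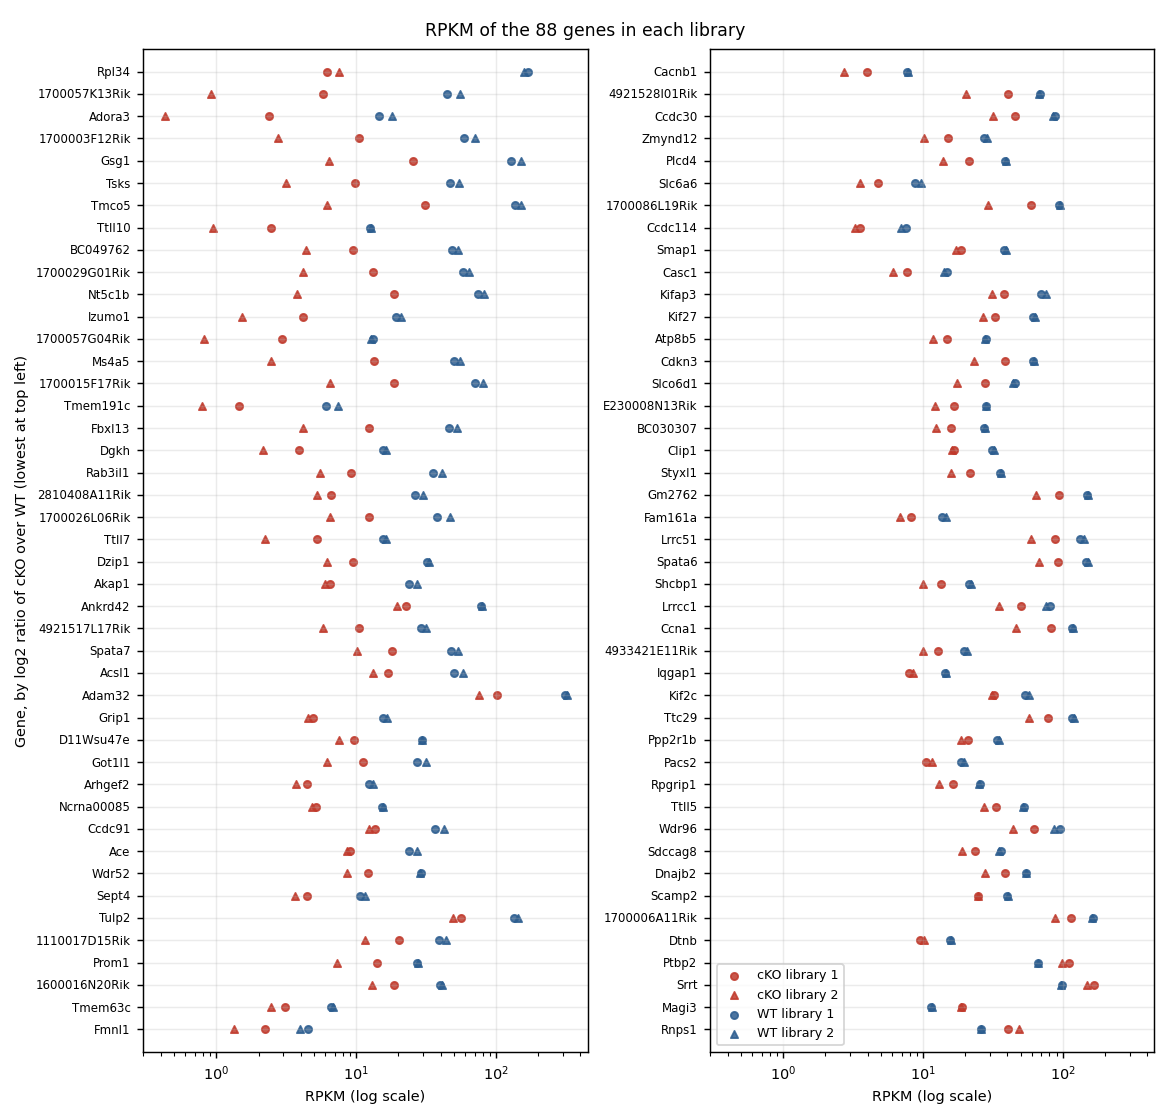
RPKM on a log axis for each of the 88 genes, ordered by the log2 ratio of mean RPKM of cKO over WT, with the lowest ratio at the top left. Red points are the 2 libraries labelled cKO and blue points the 2 WT libraries; the red points lie left of the blue ones in 84 genes and right of them in the 4 at the foot of the right panel.

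Markers place the libraries among testis cell types. Of 15 spermatid marker genes, 14 are in the expression table and all 14 were lower. Of the 988 genes of that table, 93.6% were lower and 6.38% higher. The summed level of the 14 was 191 and 42.0 RPKM in the libraries labelled cKO and 1574 and 2188 RPKM in WT. Of 8 spermatocyte genes 2 are in it, both lower, at 153 and 83.0 RPKM summed in the libraries labelled cKO and 262 and 268 RPKM in WT. Of 7 Sertoli genes only Inha is in the table, and of 5 Leydig genes only Hsd3b1, and both were higher. Of 6 macrophage genes 3 are in the table, all higher. The macrophage sums were 54.7 and 69.0 RPKM in the libraries labelled cKO and 29.0 and 29.9 RPKM in WT. Of 5 myoid genes 1, Actg2, was lower, and no spermatogonial or endothelial marker is in the table. In whole testis, fewer cells of a type and less RNA per cell cannot be told apart, and their part in the levels given here was not tested. Of these markers, the spermatid genes Gsg1 and Izumo1 and the spermatocyte gene Ccna1 are among the 88.

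The genes of RNA handling were the class in which most members were higher, 3 of only 4 genes, against 6.38% of the expression table. Srrt, whose product joins the nuclear cap-binding complex to RNA processing, was at 168 and 147 RPKM in the libraries labelled cKO and at 98.0 and 96.7 RPKM in WT. Rnps1, a splicing activator of the exon junction complex, was at 40.2 and 48.5 RPKM in the libraries labelled cKO and at 25.7 and 26.01 RPKM in WT. With Ptbp2 they form 3 of the 4 genes that were higher. As in 100% of the 988 genes, the libraries of the genotypes did not overlap in these 3. Their events were small. Srrt had a retained intron at a ΔPSI of 3, the only 1 of the 15 retained introns with a positive value, and Rnps1 had a 181-nt cassette exon at -6.5.

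Rpl34, which encodes a protein of the large ribosomal subunit, was the exception in this class and had the lowest ratio of all 88. It was at 6.12 and 7.50 RPKM in the libraries labelled cKO and at 168 and 158 RPKM in WT, a log2 ratio of -4.58. The nearest libraries of the 2 genotypes were 21.1-fold apart, the widest such gap among the 988 genes, whose median gap was 2.77-fold. Labelled cKO library 2 was here slightly above library 1, whereas it was under library 1 in 79 of the 84 lower genes. The event of Rpl34 was its 78-nt intron at -40. Ribosomal protein genes have processed copies elsewhere in the genome that can share their reads, and how the authors assigned such reads is not given in the sources used here, so this level is uncertain.

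All 14 genes of spermatid and sperm structures were lower, against 93.6% of the expression table. So were all genes of every other class except RNA handling and cytoskeleton and adhesion. Of the 14 genes, 4 were lower by 4-fold or more, against 46.3% of the table. The median log2 ratio of the 14 was -1.47, from -3.12 to -0.77. Gsg1, a gene expressed in germ cells, was at 25.6 and 6.37 RPKM in the libraries labelled cKO and at 127 and 151 RPKM in WT. Izumo1, the sperm surface protein that binds the egg receptor, was at 4.16 and 1.53 RPKM in the libraries labelled cKO and at 19.1 and 20.8 RPKM in WT. Tsks, a substrate of testis-specific serine kinases, was at 9.78 and 3.16 RPKM in the libraries labelled cKO and at 46.7 and 54.2 RPKM in WT. In all 3 genes labelled cKO library 2 was well under library 1. Gsg1 had an alternative 5′ splice site at a ΔPSI of 24 and Tsks an alternative 3′ splice site at -4. The event of Izumo1 was a retained intron of 319 nt between coding exons, at -26.

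The event with the highest absolute ΔPSI of the 88 genes lay in this class. Wdr52, now named Cfap44, encodes a component of the sperm axoneme, and its 480-nt cassette exon had a ΔPSI of -76. That exon is annotated only in retained-intron transcripts that code for no protein. A second cassette of 131 nt had 14. The gene was at 12.1 and 8.55 RPKM in the libraries labelled cKO and at 28.8 and 28.4 RPKM in WT, with the WT libraries close to each other. Wdr96 (Cfap43), its partner in the axoneme, had a pair of tandem cassettes at -1 and was at 61.7 and 43.7 RPKM in the libraries labelled cKO and at 94.5 and 85.5 RPKM in WT.

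Ncrna00085, now named Spaca6 and required for fusion of sperm and egg, was at 5.16 and 4.85 RPKM in the libraries labelled cKO and at 15.4 RPKM in each WT library. Its 72-nt intron, the shortest of those matched, had a ΔPSI of -36. Ttc29, an axonemal protein, had an alternative 3′ splice site at -31 and was at 77.5 and 56.8 RPKM in the libraries labelled cKO and at 115 and 119.9 RPKM in WT. Sept4, a septin of the ring that bounds the sperm midpiece, had an alternative 3′ site at -23 and was at 4.41 and 3.66 RPKM in the libraries labelled cKO and at 10.7 and 11.6 RPKM in WT. These 3 genes thus differed by less than 4-fold while their events passed 20 points. Adam32, of the ADAM family of membrane proteins, had the highest WT level of the 88, with 102 and 75.4 RPKM in the libraries labelled cKO and 312 and 319 RPKM in WT, and its 2 events were at -5 and 4. The other members of this class were 1700026L06Rik (Spaca9), 1110017D15Rik, Ccdc114, Casc1 and Spata6, which is needed for the sperm neck. Their largest events had a ΔPSI of -10, 17.5, -15, 14 and 2 in that order.

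Genes of the cytoskeleton and of adhesion were the largest class with known roles, and their levels differed less. Of 19, 18 were lower and 1 was higher, against 93.6% and 6.38% of the expression table. Of the 19, 3 were lower by 4-fold or more, against 46.3% of the table, and the median log2 ratio was -0.95. In 15 of them the largest event had a negative ΔPSI and in 4 a positive one, and 8 had an event past 20 points. Fmnl1, a formin that builds actin filaments, had a 99-nt exon at a ΔPSI of -64. It was at 2.23 and 1.34 RPKM in the libraries labelled cKO and at 4.48 and 3.96 RPKM in WT, the lowest WT mean of the 88. Grip1, a scaffold of PDZ domains, had a 195-nt coding exon at -50 and was at 4.89 and 4.53 RPKM in the libraries labelled cKO and at 15.6 and 16.7 RPKM in WT. The libraries labelled cKO were closer to each other in Grip1 than in Fmnl1.

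Magi3, a scaffold at cell junctions, was the only gene of this class that was higher. It was at 19.1 and 18.7 RPKM in the libraries labelled cKO and at 11.5 and 11.6 RPKM in WT, with almost no spread within a genotype. Its 91-nt exon, which ends 1 of its annotated protein isoforms, had a ΔPSI of -28. Iqgap1, a scaffold that links actin to signalling, had the 48-nt exon printed above at -22 and was at 7.87 and 8.50 RPKM in the libraries labelled cKO and at 14.4 and 14.7 RPKM in WT. Clip1, which binds growing microtubule ends, had a 198-nt coding exon at -30 and an alternative 5′ splice site at -22. It was at 16.6 and 16.1 RPKM in the libraries labelled cKO and at 31.2 and 32.0 RPKM in WT. In Iqgap1 and Clip1 the libraries of a genotype also lay close together. Dtnb, a dystrobrevin of the dystrophin complex, had the shortest cassette of the 88 genes, 21 nt at -10, and was at 9.5 and 10.1 RPKM in the libraries labelled cKO and at 15.5 and 15.9 RPKM in WT.

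Among the tubulin-modifying ligases, Ttll10 was at 2.44 and 0.94 RPKM in the libraries labelled cKO and at 12.5 and 12.7 RPKM in WT, with tandem cassettes at a ΔPSI of 31. Ttll7 was at 5.20 and 2.22 RPKM in the libraries labelled cKO and at 15.6 and 16.4 RPKM in WT, with a 75-nt coding exon at 22. Ttll5 was at 33.0 and 27.4 RPKM in the libraries labelled cKO and at 52.2 and 51.7 RPKM in WT, and its 3 events, which overlap near the end of the gene, had 9, 12 and 11.5. All 3 ligases had positive values only. Dzip1, a protein of the base of cilia, had a 98-nt cassette at -32 and was at 9.45 and 6.21 RPKM in the libraries labelled cKO and at 31.9 and 33.0 RPKM in WT. The other 9 genes of the class were the kinesin genes Kif27 and Kif2c, the kinesin-associated Kifap3, the cilium and centrosome genes Spata7, Fam161a, Rpgrip1, Sdccag8 and Lrrcc1, and Prom1. None of their events reached 20 points.

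The 5 genes of membrane traffic were all lower, against 93.6% of the expression table. Of the 5, 1 was lower by 4-fold or more, against 46.3% of the table, and 3 had an event past 20 points. Scamp2, a carrier membrane protein of the secretory route, had a 129-nt exon at a ΔPSI of 49, the highest positive value of the 88 genes. It was at 24.8 RPKM in each library labelled cKO and at 39.9 and 40.4 RPKM in WT. Ccdc91, which binds the GGA adaptors of the Golgi, had an 88-nt exon at 48 and was at 13.6 and 12.3 RPKM in the libraries labelled cKO and at 36.6 and 42.1 RPKM in WT. Smap1, a GTPase-activating protein for Arf proteins, had an 81-nt exon at -34 and was at 18.6 and 17.2 RPKM in the libraries labelled cKO and at 37.5 and 38.9 RPKM in WT. In these 3 genes the libraries labelled cKO differed little from each other. Rab3il1, an exchange factor for Rab proteins, was lower by more than 4-fold and had a 219-nt exon at 16, and Pacs2, a sorting protein, had an alternative 3′ site at -14.

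All 11 signalling genes were lower, against 93.6% of the expression table. Their median log2 ratio was -1.15. The 3 that were lower by 4-fold or more, against 46.3% of the table, were also the 3 with an event past 20 points. Over the 88 genes, 13 of the 31 with an event of 20 points or more were lower by 4-fold or more. So were 11 of the other 57, and a link was not tested. Adora3, an adenosine receptor, was at 2.36 and 0.43 RPKM in the libraries labelled cKO and at 14.4 and 18.1 RPKM in WT, with a 67-nt cassette at a ΔPSI of 23. Dgkh, a diacylglycerol kinase, was at 3.86 and 2.14 RPKM in the libraries labelled cKO and at 15.4 and 16.2 RPKM in WT, with a 93-nt exon at -45 and a 131-nt exon at -12.5. Akap1, which anchors protein kinase A at mitochondria, was at 6.47 and 5.92 RPKM in the libraries labelled cKO and at 23.7 and 26.9 RPKM in WT, with the 107-nt exon at 37. The libraries labelled cKO were far apart in Adora3 and close together in Akap1. Plcd4, a phospholipase C, had 3 events in a pair of neighbouring exons, at 11, -14 and -10, and was at 21.2 and 13.8 RPKM in the libraries labelled cKO and at 38.6 and 39.0 RPKM in WT. The others were Arhgef2, 4921517L17Rik (Cnbd2), the phosphatase genes Cdkn3, Styxl1 and Ppp2r1b, Shcbp1, and Ccna1, the cyclin A of meiosis, with log2 ratios down to -1.90 and events up to 16 points.

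The 8 genes of metabolism and transport were all lower, against 93.6% of the expression table. Of the 8, 1 was lower by 4-fold or more, against 46.3% of the table. Acsl1, which activates long-chain fatty acids, had a 177-nt exon at a ΔPSI of 42 that lies outside the coding sequence, and was at 16.97 and 13.2 RPKM in the libraries labelled cKO and at 49.8 and 58.2 RPKM in WT. Cacnb1, a calcium channel subunit, had the only pair of mutually exclusive exons of the 88 genes, at -47 for the exon of 155 nt, and was at 3.99 and 2.72 RPKM in the libraries labelled cKO and at 7.71 and 7.85 RPKM in WT. In Cacnb1 the libraries labelled cKO were less alike than those of WT. Tmem63c, of a family of ion channels, and Slc6a6, the taurine transporter, had exons at 24 and 21. Nt5c1b, a cytosolic nucleotidase, was the only one of the class lower by 4-fold or more, at 18.5 and 3.76 RPKM in the libraries labelled cKO and at 74.7 and 82.0 RPKM in WT, with a 93-nt exon at -3. Got1l1, Atp8b5 and Slco6d1 completed the class with largest events at 13, 13 and -18.

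In protein turnover, Fbxl13, an F-box protein, had a 99-nt coding exon at a ΔPSI of 32 and was at 12.3 and 4.16 RPKM in the libraries labelled cKO and at 45.9 and 52.5 RPKM in WT. Ace, the peptidase with a testis form, had a retained-intron event at -8. Dnajb2, a co-chaperone, had such an event for a 1132-nt intron at -12 and a 156-nt exon within the same interval at -11. The single transcription gene, 4933421E11Rik (Lrif1), had the longest cassette, 1480 nt at 14, and a log2 ratio of -0.83.

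The 23 genes whose role is less clear were all lower, against 93.6% of the expression table. Of the 23, 10 were lower by 4-fold or more, against 46.3% of the table. Of these, 1700057K13Rik, now named Tex35, was at 5.81 and 0.92 RPKM in the libraries labelled cKO and at 44.8 and 54.9 RPKM in WT, with a 44-nt coding exon at a ΔPSI of 32. 1700057G04Rik was at 2.95 and 0.82 RPKM in the libraries labelled cKO and at 13.1 and 12.8 RPKM in WT, with a 139-nt exon at -39. 1700003F12Rik was at 10.5 and 2.75 RPKM in the libraries labelled cKO and at 58.9 and 70.7 RPKM in WT, with an alternative 3′ site at -2. In each, labelled cKO library 2 was lower than library 1 by more than 3-fold. By contrast 2810408A11Rik, the gene with the most events, was at 6.64 and 5.22 RPKM in the libraries labelled cKO and at 26.1 and 29.9 RPKM in WT. Its 4 events, 1 of each of 4 kinds, were all negative, from -18 to -1. 1700006A11Rik had the smallest difference of these 23 genes, at 114 and 87.1 RPKM in the libraries labelled cKO and at 163 and 160.3 RPKM in WT, and its 179-nt coding exon had 18. Of the rest, Tmem191c, Tulp2 and BC030307 had an event past 20 points and the other 15 did not. These 15 are Tmco5, BC049762, 1700029G01Rik, Ms4a5, 1700015F17Rik, Ankrd42, D11Wsu47e, 1600016N20Rik, 4921528I01Rik, Ccdc30, Zmynd12, E230008N13Rik, Lrrc51, and 1700086L19Rik and Gm2762, which RefSeq lists as long non-coding RNA. Their log2 ratios ran from -2.94 for Tmco5 to -0.89 for Lrrc51.

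**Figure D2:**
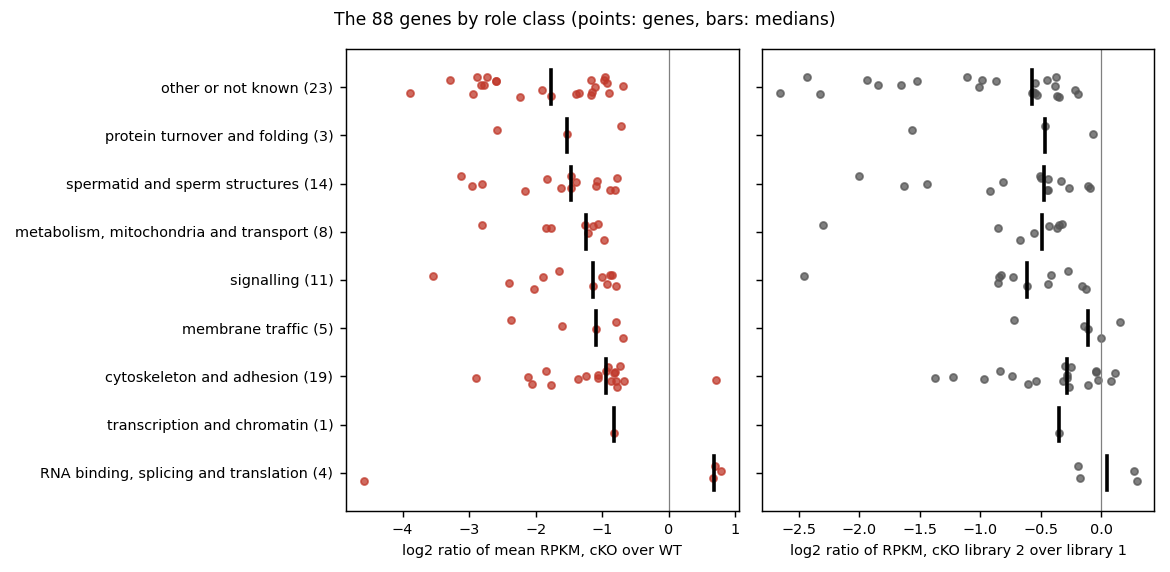
Each point is 1 of the 88 genes, in rows by role class with the number of genes in brackets, and each black bar is the class median. The left panel gives the log2 ratio of mean RPKM of cKO over WT and the right panel that of labelled cKO library 2 over library 1; the RNA handling class is the only one with its median above 0 in the left panel, at 0.68 with Rpl34 far to the left.

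Lists of genes by function gave few members. They are separate from the role classes above, which hold further genes found in both tables, such as Srrt, Rnps1 and Tsks. Of the 988 expression genes, 93.6% were lower and 6.38% higher. Of 54 actin genes, 4 are in the expression table (3 lower, 1 higher) and 10 in the splicing table, and Fmnl1 alone is in both. Of 34 adhesion genes, 4 are in the expression table (3 lower, 1 higher) and 5 in the splicing table, with Magi3 in both. Of 49 membrane traffic genes, 3 are in the expression table (2 lower, 1 higher) and 23 in the splicing table, with Scamp2 in both. Of 44 genes of RNA binding and splicing, 3 are in the expression table (1 lower, 2 higher) and 14 in the splicing table, with Ptbp2 in both. The spermatid and flagellum list ran the other way, with 41 of 63 in the expression table, all lower, and 7 in the splicing table, of which Gsg1 and Izumo1 are in both.

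The 88 genes had 111 events, and the other 827 spliced genes had 1112. Negative ΔPSI was given to 69 (62.2%) of the 111 and positive ΔPSI to 42 (37.8%), against 59.4% and 38.3% over all events. An absolute ΔPSI of 20 points or more was reached by 33 events (29.7%) in 31 genes, against 21.0% over all events. The median absolute ΔPSI was 13 points in the 88 genes and 11 points in the others. Single cassette exons made up 62 (55.9%) of the events, against 61.1% in the other genes. Retained introns and alternative 3′ splice sites followed with 15 each (13.5%), against 16.4% and 6.29% in the other genes, then 12 tandem cassettes (10.8% and 9.08%), 6 alternative 5′ splice sites (5.41% and 4.41%) and the single mutually exclusive pair.

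The sign of ΔPSI went with the kind of event. Cassette exons of the 88 genes were split evenly, with 31 negative and 31 positive. Retained introns were negative in 14 of 15, and in 87.9% of those of the other genes. Alternative 3′ splice sites were negative in 13 of 15 and alternative 5′ sites in 5 of 6, against 67.1% and 71.4% in the other genes. Tandem cassettes were negative in 5 and positive in 7. Of the 88 genes, 19 (21.6%) had more than 1 event, as had 23.6% of the other spliced genes.

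A cassette whose length is a multiple of 3 leaves the reading frame in place when it lies within the coding sequence. This held for 31 (50.0%) of the 62 cassettes of the 88 genes and for 56.3% of those of the other spliced genes. Among cassettes with negative ΔPSI it was 19 of 31 (61.3%), and among those with positive ΔPSI 12 of 31 (38.7%), against 57.9% and 54.8% in the other genes. Of the 8 cassettes among the 10 events with the highest absolute ΔPSI, those of Wdr52, Fmnl1, Grip1, Scamp2, Dgkh and Acsl1 had such a length, and those of Ccdc91 and 1700057G04Rik had not. The 31 genes with a cassette of any other length had a median log2 ratio of -1.15, with 9 lower by 4-fold or more. The 25 genes whose cassettes were all a multiple of 3 long had -1.17, with 6 lower by 4-fold or more. Both groups rest on length alone. They include exons outside the coding sequence and exons that hold a stop codon, so these medians do not compare frame with level. Alternative splice sites differed by a multiple of 3 in 11 of the 14 events where the annotation gave the difference, and in 27 of 55 such events of the other genes.

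The annotation placed 51 of the 62 cassettes at 1 exon of the gene. Of these, 27 are coding, 14 are partly coding and 10 are not coding, where length says nothing about frame. In 10 of the 51 (19.6%), against 10.8% in the other genes, the exon is found in an NMD transcript, in no protein-coding transcript, and is skipped in protein-coding ones. These exons belong to 1700015F17Rik, 1700057G04Rik, Akap1, Ccdc91, Dnajb2, Iqgap1, Ms4a5, Nt5c1b, Slco6d1 and Tmem63c, and 8 of the 10 hold the annotated stop codon themselves. Their ΔPSI was positive in 4 and negative in 6, with a median absolute value of 20 points, against 9 points for such exons in the other genes. The median log2 ratio of the 10 genes was -1.82. In 3 genes, Ptbp2, Dgkh and 1700006A11Rik, the annotation has the reverse. There NMD transcripts but no protein-coding ones are among those that skip the exon, and the ΔPSI was -9, -45 and 18. In 29 the transcript codes for protein with the exon and without it. Because the direction of subtraction is not stated, none of these values says whether the NMD form was the more or the less frequent one in the libraries labelled cKO.

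The retained introns were short. Of 15, 12 were placed at 1 annotated intron, all 12 between coding exons and 11 of them annotated as retained in some transcript. Their median length was 113.5 nt, from 72 to 1132 nt, against 298 nt in the other genes, and 6 were under 110 nt. The sequence was read for 11, all of which begin with GT and end with AG, as did all 109 read from the other genes. The longest run of C and T had a median of 10 bases, against 11 in the other genes, and from 5 to 20 among the 11. As the sequences above show, that of Rpl34 is 11 bases long and lies next to the 3′ splice site, and the first Tmem191c intron has no run longer than 5 bases.

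**Figure D3:**
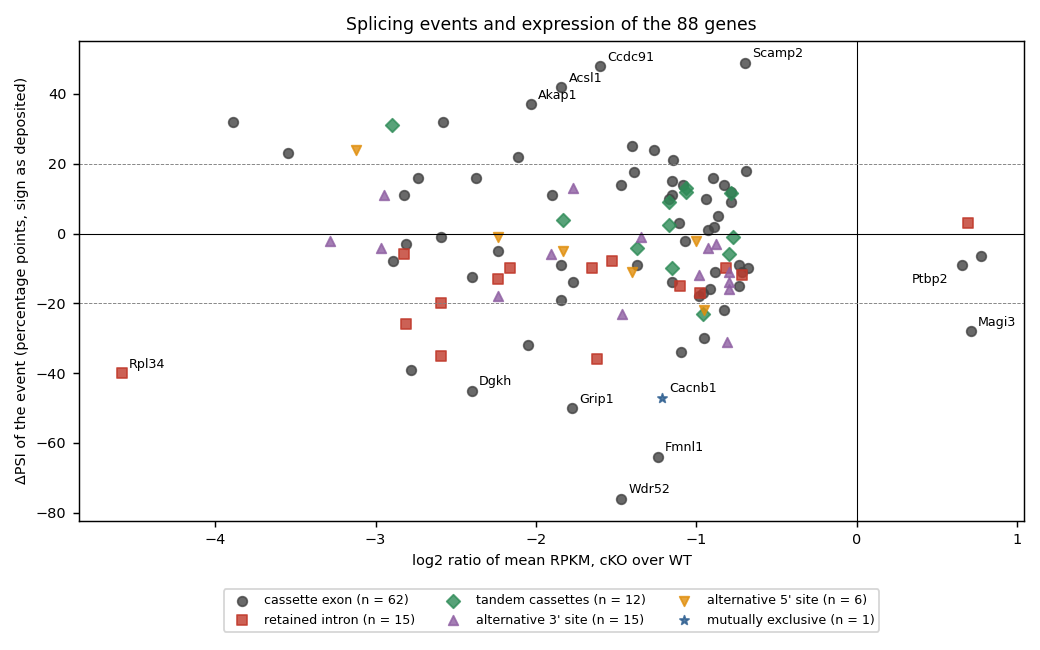
Each point is 1 of the 111 events of the 88 genes, with the log2 ratio of mean RPKM of cKO over WT of its gene on the x axis and its ΔPSI in percentage points on the y axis, with the sign as deposited. Shapes and colours give the kind of event and dashed lines mark 20 points; retained introns lie below 0 in 14 of 15 events, and the lowest ratio, that of Rpl34, belongs to one of them at -40.

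Size of splicing event and size of expression difference were weakly related across the 88 genes. Spearman's correlation between the largest absolute ΔPSI and the log2 ratio was -0.215 and Pearson's r was -0.193 (n = 88 genes, which share the same 4 libraries and whose ΔPSI and RPKM come from the same reads), so no p is given. With the sign of ΔPSI kept, Spearman's correlation was -0.108. The 31 genes with an event of 20 points or more had a median log2 ratio of -1.62, with 13 lower by 4-fold or more, and the other 57 had -1.08, with 11. Levels of the 31 genes ran down to 0.43 RPKM, that of Adora3 in labelled cKO library 2. As ΔPSI comes with no error, the part of low read numbers in its size was not tested. By the kind of the largest event, the median log2 ratio was -1.21 for 52 genes with cassettes, -1.41 for 14 with alternative 3′ sites, -1.57 for 12 with retained introns and -1.07 for 6 with tandem cassettes. It was -1.83 for 3 genes with alternative 5′ sites and -1.21 for the 1 gene with mutually exclusive exons.

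In most of the 88 genes the labelled cKO libraries were not alike. Among the 84 lower genes, library 2 was under library 1 in 79, against 94.8% of the 925 lower genes of the table. It was at 0.5 of library 1 or less in 17 (20.2%), against 47.0% of the table, and within 1.25-fold in 26 (31.0%), against 15.8%. WT libraries were within 1.25-fold of each other in 87 of the 88. The gap followed the size of the difference. In the 24 genes lower by 4-fold or more the median log2 ratio of library 2 over library 1 was -1.48, with 16 at 0.5 or less, whereas in the 60 lower by less it was -0.38, with 1 gene at 0.5 or less. Of the 24, Rpl34 and Akap1 were within 1.25-fold between the libraries labelled cKO. Spearman's correlation between the 2 ratios was 0.607 over the 88 genes and 0.802 over the table, given as a description since both ratios hold the same libraries. Summed spermatid markers were likewise lower in labelled cKO library 2 than in library 1, as given above, and their part in these gaps was not tested. The median log2 ratio of library 2 over library 1 was -0.45 in the 88 genes and -0.85 in the table. By class it was -0.11 in membrane traffic and -0.28 in cytoskeleton and adhesion, against -0.47 in sperm structures and -0.61 in signalling.

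**Figure D4:**
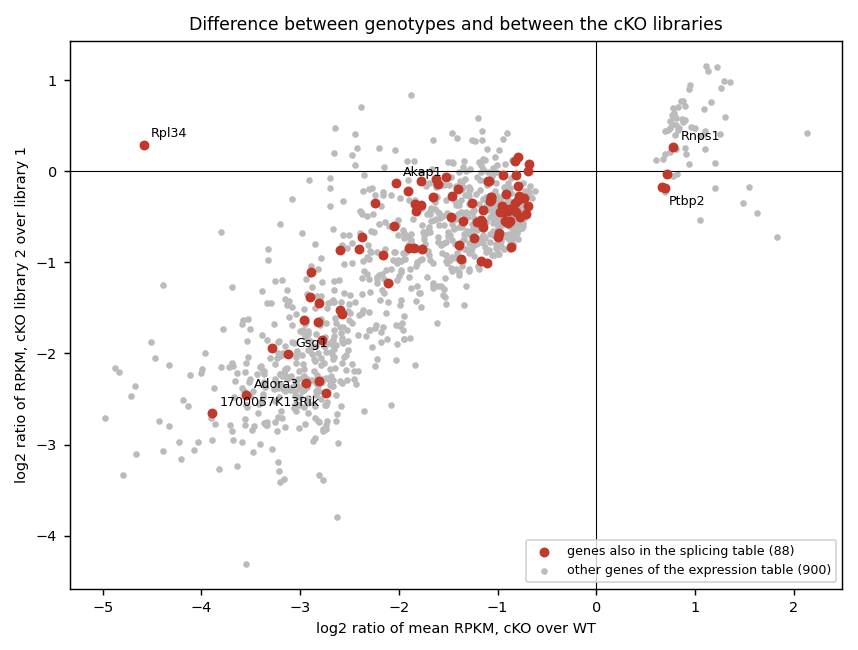
The log2 ratio of mean RPKM of cKO over WT (x axis) is set against the log2 ratio of RPKM of labelled cKO library 2 over library 1 (y axis) for the 88 genes in red and the other 900 genes of the expression table in grey. Both cloud and red points run downwards to the left, and Rpl34 lies apart at -4.58 and 0.29.

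Promoters were compared for 1 motif of germ cell genes, the full cAMP response element bound by CREM, a regulator of spermatid transcription. The palindromic letters TGACGTCA were searched from 250 bases before to 50 bases after the start in RefSeq promoters of build GRCm38.p6, where 1 search covers both strands. Of the 77 genes with a promoter in that table, 4 (5.19%) hold it, namely Izumo1, Styxl1, BC049762 and Spata7. It was found for 4.14% of the expression genes, 4.70% of the spliced genes and 2.03% of all genes with a promoter.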

How the data were processed

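Paired-end RNA libraries were made from poly(A)-selected RNA with a ScriptSeq kit, per the labels' protocols, which also describe the RNA as depleted of ribosomal RNA. The expression table holds RPKM per library and per genotype, a log2 fold change and an adjusted p-value for 988 genes, per the file headers. Log2 ratios computed here from mean RPKM, cKO over WT, differ from the deposited log2 fold change by at most 0.0272. The adjusted p-value that the authors deposited is rounded to 0 for 48 of the 88 genes. The splicing table holds ΔPSI, treated as a score in percentage points, for 1223 events, per the file headers, and 308 of them carry no gene name. The smaller splicing table was not used. The submitters' processing notes name builds mm9 and mm10. Which aligner, splicing caller, test and filters lie behind the tables is not given in the sources used here. Read totals do not accompany RPKM, so depth is unknown and no counting interval is given. A lower share of some transcripts raises the RPKM of others.

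From these values, ratios, medians, counts and shares were computed in Python 3.11.15 with pandas 2.3.3, numpy 2.4.6 and scipy 1.17.1, and figures with matplotlib 3.10.9. No test was made, since the 88 genes were chosen on the comparison described. Event coordinates are mm9, counted from 1, and were not converted. Exons and introns were placed by length among those of the gene in GENCODE M21 (mm10), which gave a match for 96.0% of cassettes and 77.7% of retained introns in annotated genes. The deposited interval of a retained intron spans its flanking exons. RefSeq (GRCm38.p6) gave a current symbol for 87 of the 88 names. The members and gene lists were chosen with earlier results of these data known, and the 9 role classes were assigned by gene name. The genes named are the 10 with the largest absolute ΔPSI, the 6 with the lowest and the 6 with the highest ratio, those with 3 or more events and those in the functional lists. Others were named by role class after their values were seen. Each genotype has 2 libraries, 1 per mouse, so both values are printed in place of a mean and SD.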

Additional observations from a re-analysis of the deposited data

How the results depend on the processing

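Of 39 alternatives, 35 left a value within a set tolerance. It was 1.5 times for a count, the 95% exact binomial interval for a share, and the SD between single labelled cKO libraries for the median log2 ratio (0.38) and for Spearman's correlation (0.085). For the median log2 ratio of labelled cKO library 2 over library 1 it was that of the WT libraries (0.048). With 2 libraries per genotype, such tolerances say little about stability. With events of at least 20 points only, 31 genes were in both tables and 13 of them were lower by 4-fold or more, as fewer genes enter. Their median log2 ratio was -1.62, and the cause was not tested. With the signed ΔPSI, Spearman's correlation with the log2 ratio was -0.108. Leaving out 1 library at a time gave median log2 ratios from -1.54 to -1.0, from 18 to 30 genes lower by 4-fold or more, and Spearman's correlations from -0.278 to -0.157. The lowest and highest of the 3 came without labelled cKO library 1 or 2. A pseudocount of 1 gave a median of -1.12 and 20 genes lower by 4-fold or more. Matching names through synonyms, or leaving events without a name out, kept 88 genes. The replicate numbers were not used as pairs, because no value here comes from a test. The direction of ΔPSI, its error, the depth of the libraries and the genes outside the tables are not known here, and exon identity rests on length.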
